A study of Brassica napus with 12 samples.

Results

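The genes described here are the copies of CONSTANS, of CONSTANS-LIKE (COL) genes and of B-box zinc finger (BBX) genes in oilseed rape, Brassica napus, a crop that carries an A and a C subgenome from its parental species. A row of the deposited count table was taken as a member when its Swissprot protein name held "Zinc finger protein CONSTANS" or "B-box zinc finger protein", which gave 160 of the 100919 genes. Of these, 157 had the name in that spelling, and 3 copies named for COL11 had a small initial letter. The members carried 25 protein names, and 78 lay on A chromosomes, 77 on C chromosomes and 5 on unplaced scaffolds.

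The study set out to map a gene that controls the architecture of the inflorescence and the plant. RNA was taken from whole apical meristems, with no treatment, of plants grown at an experimental station, when the apex passed from differentiating inflorescence primordia to initiating floral primordia. ZS11 was labelled wild type and SX3 a natural mutant. Zlike and Slike were BC2 individuals from a second backcross between these lines that contrasted in inflorescence and plant architecture; Zlike carried the genotype label WT and Slike the label mutant. Each of the 4 groups had 3 libraries. The labels give no plant age and do not say if libraries are separate plants, pools or repeats of one extract. P-values therefore reflect library-to-library spread, and this may be technical in origin. Which parent was recurrent, and which segments of it a backcross plant carried, is likewise not given in the labels.

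B-box proteins are zinc-binding transcription regulators that carry the day length and light signal. In Arabidopsis, CONSTANS protein is stable in the light of long days and switches on FLOWERING LOCUS T (FT), whose protein moves from the leaf phloem to the apex as the flowering signal. Relatives act on both sides of that switch or on greening, and many are transcribed at a set time of day under the circadian clock. Structural class 1 (CONSTANS and COL1 to COL5) and class 2 (COL9 to COL15) join a pair of B-box motifs to a CCT motif, class 3 (COL6, COL7, COL8 and COL16) joins a single B-box to CCT, class 4 (BBX18 to BBX25) has B-boxes and no CCT, and class 5 has a single B-box. The roles given below are those known in Arabidopsis. A protein name here is the best match listed in the deposited table and need not mark the true counterpart.

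The class sizes were 55, 32, 20, 38 and 15 copies. Not all names fitted the domain listed beside them: 91 members had a B-box as their listed Pfam domain, 49 a CCT motif and 20 neither. In 4 of the CCT members, named COL3 or COL4, the listed non-redundant protein match was a two-component response regulator, the family of the clock's pseudo-response regulators. In 5 members named COL12 the listed domain was a papain-type protease. Names and listed domains are therefore kept apart below where they matter.

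Each library held between 13445924 and 17778731 counts in genes, and 3 counts corresponded to 0.169 to 0.223 CPM (counts scaled to library size). Levels below are CPM scaled by the trimmed mean of M-values (TMM). The labelled tissue was checked with 16 genes of the shoot apical meristem (SHOOT MERISTEMLESS, KNAT1, WUSCHEL, CLAVATA1 and CLAVATA3), whose summed level was 437 ± 6.38 CPM in ZS11, 355 ± 5.51 in SX3, 296 ± 4.42 in Zlike and 255 ± 5.33 in Slike (SD, n = 3). Floral organ identity genes, 32 in all, summed to 13.7 ± 1.18 CPM in ZS11, 199 ± 1.60 in SX3, 95.2 ± 4.51 in Zlike and 416 ± 4.75 in Slike (SD, n = 3). Chlorophyll-binding and Rubisco small-subunit genes, 94 in all, summed to 9422 ± 28.4 CPM in ZS11, 3723 ± 26.4 in SX3, 4899 ± 82.9 in Zlike and 5833 ± 29.5 in Slike (SD, n = 3). At the stem cell niche, WUSCHEL averaged 1.00 ± 0.369, 2.78 ± 0.245, 1.07 ± 0.613 and 2.73 ± 0.588 CPM in ZS11, SX3, Zlike and Slike, and CLAVATA3 0.821 ± 0.278, 1.12 ± 0.490, 1.60 ± 0.400 and 1.26 ± 0.136 CPM. SHOOT MERISTEMLESS summed to 268 ± 5.60, 147 ± 1.21, 144 ± 3.28 and 120 ± 3.65 CPM in the same order of groups. KNAT1 was instead higher in SX3 than in ZS11, at 89.5 ± 1.65, 130 ± 3.78, 74.8 ± 0.976 and 66.2 ± 2.14 CPM. CLAVATA1 was at 78.2 ± 1.17, 74.2 ± 3.54, 75.1 ± 0.773 and 65.4 ± 1.82 CPM. No meristem gene was at 0 in all libraries. The list was 4 higher and 3 lower of 8 tested in SX3 against ZS11 (all genes 33.4% and 35.9%). The whole-apex samples therefore held transcripts of meristem genes together with those of green and floral genes. The summed levels of these lists differed between the groups. In bulk tissue, fewer cells of a type and less RNA per cell cannot be told apart.

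The B-box genes as a whole took less of the RNA in SX3 than in ZS11. Members took 0.101 to 0.104% of the counts of the ZS11 libraries, 0.0744 to 0.0750% in SX3, 0.0849 to 0.0857% in Zlike and 0.0804 to 0.0819% in Slike. Their summed level was 1059 ± 17.5 CPM in ZS11, 748 ± 3.94 in SX3, 840.0 ± 3.51 in Zlike and 796 ± 8.11 in Slike (SD, n = 3). Class 1 held 60.6% of the members' summed CPM in ZS11 and 45.3% in SX3, whereas class 2 held 9.07% and 31.7%. In Zlike and Slike class 1 held 50.8% and 50.03%, and class 2 23.8% and 24.8%. A level of at least 1 CPM was reached by 102 members in some group and by 65 in every group; 19 members had no count in any library and 40 had fewer than 10 counts in all 12 together.

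Per length, in the FPKM values that the authors deposited, which divide counts by gene length and library depth, the order of the most abundant members changed with the group. In ZS11 COL4 on A09 (99.04 ± 3.98 FPKM), on A06 (94.2 ± 0.969) and on C07 (91.02 ± 3.88) led. The next were COL3 on C04 (81.4 ± 0.925) and on A04 (72.02 ± 1.79), followed by BBX25 on C04 (53.4 ± 0.999). In SX3 COL4 on A06 led with 43.8 ± 2.18 FPKM, while BBX25 on C04 had 1.88 ± 0.613 FPKM. COL10 on C02 went the other way, from 0.0599 ± 0.104 to 17.2 ± 2.05 FPKM.

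Between the parental lines most B-box genes differed, in both directions. Of the 100 members tested in SX3 against ZS11, 36 were higher in SX3 and 44 lower at an adjusted p under 0.05 in edgeR's quasi-likelihood test; among all 50035 genes tested, 33.4% were higher and 35.9% lower, so that 69.3% were called. Differences of at least 2-fold took a large part of these: 24 were that much higher and 35 that much lower, against 10.5% and 15.8% of all genes. The median log2 fold change was -0.12 over members and -0.0079 over all genes. In 79 of the 80 members called (98.8%), the SX3 and ZS11 libraries did not overlap, as in 95.2% of all genes called. The 60 members left out by the filter on low counts averaged at most 0.526 CPM in either of these lines.

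The classes divided. Class 2 was mostly higher in SX3 (13 higher and 1 lower of 18 tested, median log2 fold change 1.10), and class 5 was lower without an exception among its calls (0 higher and 11 lower of 12 tested, median -1.91). Class 4 was more often lower (7 higher and 14 lower of 29 tested, median -0.19), and class 3 was split (4 higher and 3 lower of 7 tested). Class 1 was split as well (12 higher and 15 lower of 34 tested), and its calls by listed domain were as follows: members listed with a B-box were 4 higher and 11 lower of 16 tested (median -1.33), and those listed with CCT were 8 higher and 3 lower of 17 tested (median 0.12). For comparison, 33.4% of all genes tested were called higher in SX3 than in ZS11 and 35.9% lower. Calls split between both directions, as in classes 1 and 3, were thus also seen over all genes. The differences between the classes and between the listed domains were not tested.

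**Figure D1:**
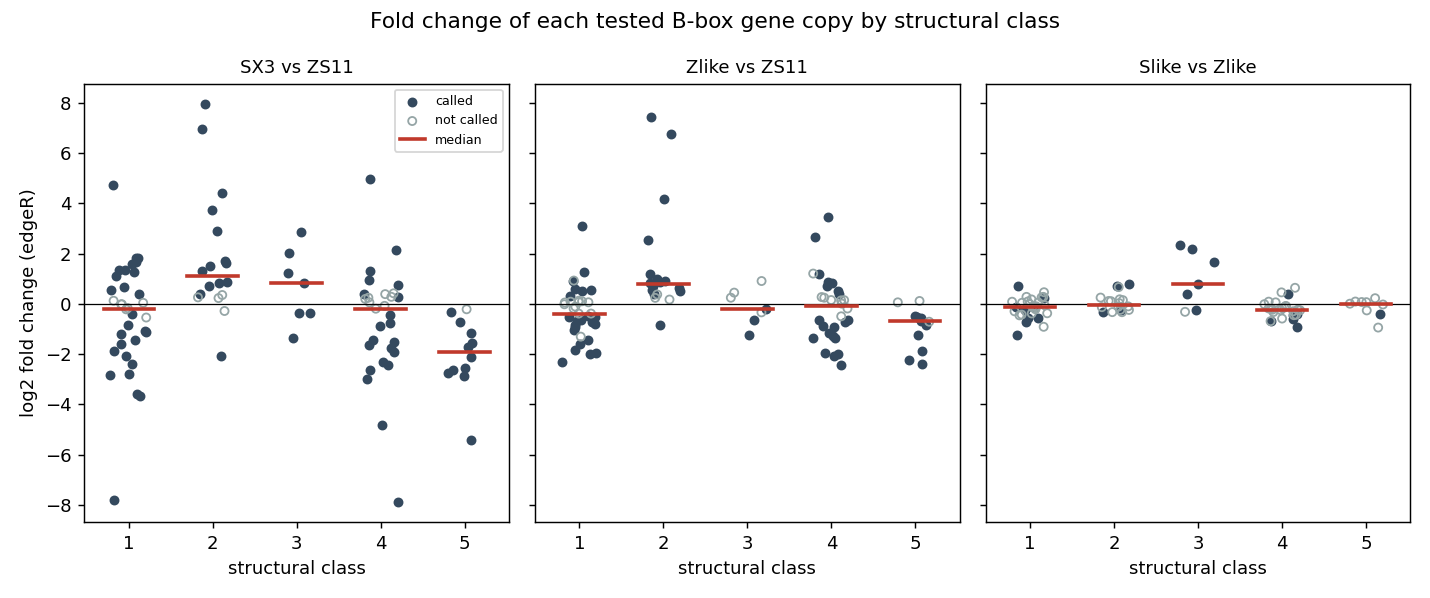
Log2 fold change (vertical axis, edgeR) of every tested B-box gene copy by structural class (horizontal axis) in SX3 against ZS11, Zlike against ZS11 and Slike against Zlike; filled points passed an adjusted p under 0.05 and red lines are class medians. In SX3 against ZS11 the class 2 median is 1.10 and the class 5 median -1.91; in Slike against Zlike the points stay between -1.24 and 2.35.

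The backcross classes differed far less from each other. In Slike against Zlike 10 of 92 members tested were higher in Slike and 17 lower, where 13.8% and 13.4% of all genes were called, or 27.2% in either direction; 3 members were at least 2-fold higher and 1 at least 2-fold lower (all genes 3.6% and 0.61%). Without Zlike replicate 1, or without Slike replicate 3, 11 members in place of 17 were called lower. The DESeq2 Wald test called 10 members higher and 6 lower, and with no low-count filter 15 were higher and 14 lower. Over all genes, DESeq2 called 5088 higher and 4244 lower of 59077 tested. The reported fit called 6822 and 6625 of 49526, and the fit with no filter 7200 and 6534 of 69923. The balance of the member calls thus depended on the method, and DESeq2 also called fewer over all genes. In 25 of the 27 called (92.6%) the Slike and Zlike libraries did not overlap, as in 93.2% of all genes called. Class 3 stood on the higher side (5 higher and 1 lower of 7 tested), whereas classes 1, 4 and 5 were 2 higher and 8 lower of 31 tested, 1 higher and 5 lower of 27 tested and 0 higher and 1 lower of 9 tested.

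The step from wild-type to mutant-type plants was then compared between the backcross and the parental pair, as (Slike - Zlike) - (SX3 - ZS11) on the log2 scale. Of 103 tested in one model of all 12 libraries, 38 passed with a more positive and 32 a more negative value in the backcross pair; among all genes these were 30.1% and 23.2%, 53.3% in all. In class 2, 15 of 18 were more negative. Against the line ZS11, Zlike was higher in 29 and lower in 42 of 103 members (all genes 23.1% and 22.9%, 46.0% in all). Against SX3, Slike was higher in 34 and lower in 28 (all genes 29.8% and 23.9%, 53.7% in all). These comparisons share libraries with those above and are not independent of them.

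CONSTANS itself was scarce in the meristem and was higher in SX3. On A10 (BnaA10G0206200ZS, chromosome A10, 22132539 to 22133811) the ZS11 libraries held 1, 0 and 2 counts, the SX3 libraries 19, 27 and 38, the Zlike libraries 1, 2 and 0 and the Slike libraries 11, 4 and 4. All SX3 libraries lay above every library of the other groups, which were at or near the limit of detection except for the first Slike library. The copy was higher in SX3 than in ZS11 (1.86 ± 0.426 against 0.0662 ± 0.0706 CPM, a ratio of 29.5, with a 95% counting interval of 9.76 to 146; adjusted p = 7.1e-15). The interval covers counting error only.

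The C09 copy (BnaC09G0505500ZS, chromosome C09, 61005355 to 61006629) had 4, 8 and 12 counts in the ZS11 libraries, 13, 22 and 24 in those of SX3, 2, 4 and 3 in those of Zlike and 2, 7 and 3 in those of Slike. It too was highest in SX3 (1.32 ± 0.324 against 0.531 ± 0.306 CPM in ZS11; log2 fold change 1.36, SE 0.37, adjusted p = 6.4e-04), and its ZS11 and SX3 libraries did not overlap. Slike was lower than SX3 for the A10 copy (log2 fold change -2.06) and for the C09 copy (-2.21; adjusted p = 3.8e-06 and 2.1e-05); the values were -2.74 for A10 without Slike replicate 1 and -2.86 for C09 without Slike replicate 2. Neither copy passed the low-count filter in Slike against Zlike. With no filter the A10 copy, with 19 counts in Slike and 3 in Zlike, was called higher in Slike (adjusted p = 0.021). It was also called in the fit of all 12 libraries (log2 fold change 2.57, adjusted p = 0.0079), but not in the DESeq2 Wald test (adjusted p = 0.089).

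Each CONSTANS copy lies next to a copy named COL1, and the neighbours moved in opposite directions; both COL1 copies were named after their values were seen. On A10, COL1 (BnaA10G0206100ZS, chromosome A10, 22123527 to 22124540) ends 7998 bases before CONSTANS starts, and on C09 the gap from COL1 (BnaC09G0505400ZS, chromosome C09, 60998624 to 60999625) to CONSTANS is 5729 bases. In the A10 copy of COL1 the ZS11 libraries held 2.21, 2.71 and 1.27 CPM, the SX3 libraries 0.367, 0 and 0.118, the Zlike libraries 0.553, 0.701 and 0.287 and the Slike libraries 0.293, 0.420 and 0.337. Here ZS11 was high and SX3 low, with no overlap (log2 fold change -3.65, SE 0.44, adjusted p = 6.2e-13; -4.84 without SX3 replicate 1). In the C09 copy the ZS11 libraries held 2.56, 2.58 and 2.46 CPM, the SX3 libraries 0.588, 0.647 and 0.235, the Zlike libraries 0.898, 0.764 and 0.431 and the Slike libraries 0.731, 0.769 and 0.876. Again every ZS11 library exceeded every library of the other groups (log2 fold change -2.39, SE 0.32, adjusted p = 5.2e-11 in SX3 against ZS11).

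Zlike was also below ZS11 for COL1 on A10 (log2 fold change -1.98, adjusted p = 2.5e-06) and on C09 (-1.84, adjusted p = 2.4e-07), while CONSTANS on C09 did not pass (log2 fold change -1.30, SE 0.59, adjusted p = 0.063) and the A10 copy had only 3 counts in each of these groups. Without ZS11 replicate 1 the C09 value passed (adjusted p = 0.021). The 20 genes tested around CONSTANS had a median log2 fold change of -0.62 on A10 and -0.15 on C09 in SX3 against ZS11.

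**Figure D2:**
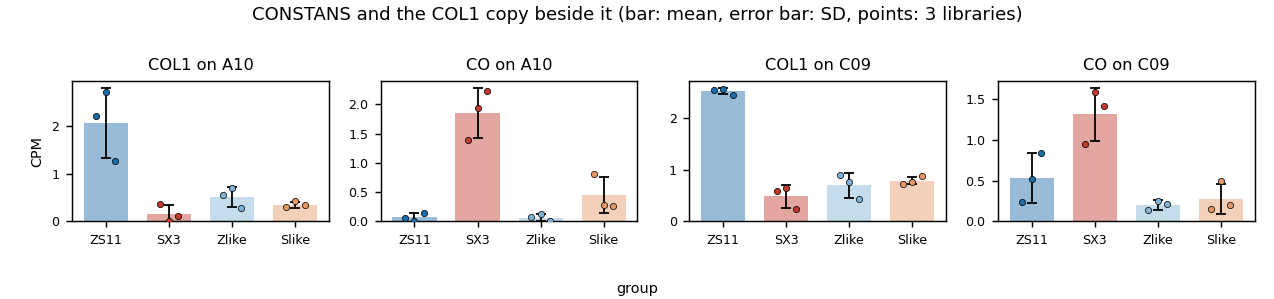
Level (vertical axis, TMM-scaled CPM, linear from 0) of COL1 and CONSTANS on A10 and C09 in the 4 groups (horizontal axis); bars are means, error bars SD and points the 3 libraries. COL1 is highest in ZS11 (2.06 and 2.53 CPM) and CONSTANS in SX3 (1.86 and 1.32 CPM).

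COL3 and COL4 made up most of the class and were lower in SX3. COL4, which represses flowering in Arabidopsis, summed over 15 copies to 371 ± 8.47 CPM in ZS11, 151 ± 2.92 in SX3, 216 ± 5.12 in Zlike and 199 ± 3.81 in Slike (SD, n = 3). COL3, a positive regulator of light-grown seedling development, summed over 11 copies to 171 ± 1.13 CPM in ZS11, 87.7 ± 2.75 in SX3, 106 ± 1.98 in Zlike and 91.8 ± 3.20 in Slike (SD, n = 3). In both names the mean was lowest in SX3, and the means of the backcross classes lay between those of the parents.

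In COL4 on A09 (BnaA09G0066400ZS, chromosome A09, 3989150 to 3991166) the ZS11 libraries held 104, 111 and 104 CPM, the SX3 libraries 34.97, 33.8 and 36.6, the Zlike libraries 60.2, 57.8 and 63.7 and the Slike libraries 59.7, 56.5 and 57.8. In COL4 on A06 (BnaA06G0333200ZS, chromosome A06, 41587921 to 41589471) the ZS11 libraries held 104, 102 and 101 CPM, the SX3 libraries 44.97, 44.9 and 48.9, the Zlike libraries 68.5, 66.4 and 63.7 and the Slike libraries 61.1, 59.3 and 60.1. In neither did SX3 or ZS11 overlap another group. Both fell in SX3 against ZS11 (A09: log2 fold change -1.59, SE 0.045, adjusted p = 5.5e-68; A06: log2 fold change -1.13, SE 0.042, adjusted p = 2.7e-54).

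In COL4 on C09 (BnaC09G0055900ZS, chromosome C09, 3580725 to 3582245) the ZS11 libraries held 52.9, 54.7 and 57.99 CPM, the SX3 libraries 8.08, 7.33 and 7.65, the Zlike libraries 20.2, 20.9 and 20.5 and the Slike libraries 17.7, 19.3 and 19.1. This copy fell the most of the abundant COL4 copies (log2 fold change -2.83, SE 0.075, adjusted p = 3.0e-71). Zlike was below ZS11 as well, at log2 fold changes of -0.82 on A09, -0.63 on A06 and -1.43 on C09 (highest adjusted p = 5.0e-29). Between Slike and Zlike the A06 copy was slightly lower in Slike (log2 fold change -0.14, adjusted p = 0.02), a call lost without Zlike replicate 1 (adjusted p = 0.12), without Slike replicate 2 (0.07), without Slike replicate 3 (0.053) and in DESeq2 (0.081). The A09 and C09 copies did not pass (adjusted p = 0.41 and 0.23).

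COL3 on C04 (BnaC04G0461800ZS, chromosome C04, 58868888 to 58869910) followed the same order. In it the ZS11 libraries held 79.9, 78.1 and 79.3 CPM, the SX3 libraries 21.4, 22.4 and 20.7, the Zlike libraries 45.04, 43.4 and 45.01 and the Slike libraries 35.3, 37.1 and 40.1. None of the groups overlapped another. It fell in SX3 (log2 fold change -1.88, SE 0.053, adjusted p = 1.0e-67), and it passed in Slike against Zlike (log2 fold change -0.24, SE 0.057, adjusted p = 4.3e-04), where Slike was the lower.

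The copies named COL3 and COL4 but listed with a CCT motif were more mixed (all genes in SX3 against ZS11 33.4% higher and 35.9% lower). All 4 tested COL4 copies listed with a B-box were lower in SX3, and so were all 3 tested COL3 copies; of the CCT-listed copies, 4 of 5 COL4 and 2 of 4 COL3 were higher, and COL3 on C09 (BnaC09G0161200ZS), named after its values were seen, was lower (log2 fold change -2.80, SE 0.42, adjusted p = 2.2e-09). COL3 on C05 (BnaC05G0474100ZS, chromosome C05, 52197111 to 52198143), listed with CCT, is an example, named after its values were seen. Its ZS11 libraries held 6.92, 7.55 and 7.17 CPM, the SX3 libraries 17.3, 19.99 and 17.7, the Zlike libraries 6.22, 5.16 and 3.80 and the Slike libraries 3.51, 3.22 and 3.44. SX3 stood alone above the other groups (log2 fold change 1.35, SE 0.10, adjusted p = 4.5e-25). Slike was below Zlike (log2 fold change -0.58, adjusted p = 0.0075), a call lost without Zlike replicate 1 (adjusted p = 0.13) and in DESeq2 (0.059).

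COL4 on A03 (BnaA03G0330300ZS, chromosome A03, 17377708 to 17379106), whose listed match is a response regulator, was also highest in SX3 and lowest in Slike: the ZS11 libraries held 0.698, 1.36 and 0.844 CPM, the SX3 libraries 3.38, 3.09 and 3.71, the Zlike libraries 1.11, 0.956 and 0.790 and the Slike libraries 0.439, 0.280 and 0.472. It was higher in SX3 than in ZS11 (log2 fold change 1.83, SE 0.26, adjusted p = 1.9e-10) and at least 2-fold lower in Slike than in Zlike (log2 fold change -1.24, SE 0.45, adjusted p = 0.028). The latter call rested on few counts and was lost without Zlike replicate 1 (adjusted p = 0.11) or 2 (0.068), without Slike replicate 1 (0.057) or 2 (0.13) and in DESeq2 (0.12). A further COL4 copy on A09 (BnaA09G0148100ZS, chromosome A09, 9003097 to 9004613), listed with CCT, was instead high in the backcross classes: its ZS11 libraries held 0, 0.0645 and 0.351 CPM, the SX3 libraries 0.147, 0.360 and 0.471, the Zlike libraries 1.17, 1.59 and 0.718 and the Slike libraries 1.32, 1.61 and 1.35. Its rise in Zlike against ZS11 passed (log2 fold change 3.11, SE 0.55, adjusted p = 6.2e-07; 2.48 without ZS11 replicate 1 and 4.92 without ZS11 replicate 3); both copies were named after their values were seen.

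COL5, which can advance flowering in short days when overexpressed, changed little in sum: 92.7 ± 4.51 CPM in ZS11, 96.1 ± 4.10 in SX3, 103 ± 3.39 in Zlike and 105 ± 5.73 in Slike (SD, n = 3). Among its 12 tested copies 4 were higher and 3 lower in SX3 than in ZS11 (all genes 33.4% and 35.9%). In Slike against Zlike 1 was higher and 1 lower (all genes 13.8% and 13.4%). COL2 was represented by 1 tested copy, on C01 (BnaC01G0499200ZS, chromosome C01, 56776905 to 56777870), named after its values were seen. It had 38, 27 and 22 counts in the ZS11 libraries, 0, 0 and 0 in those of SX3, 6, 5 and 5 in those of Zlike and 2, 4 and 11 in those of Slike. Against a floor of 3 counts per library it was at least 8.98-fold lower in SX3 than in ZS11 (adjusted p = 5.8e-17). The 20 tested genes around it also had a median log2 fold change of -1.02 in SX3 against ZS11; their part in the result was not tested.

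**Figure D3:**
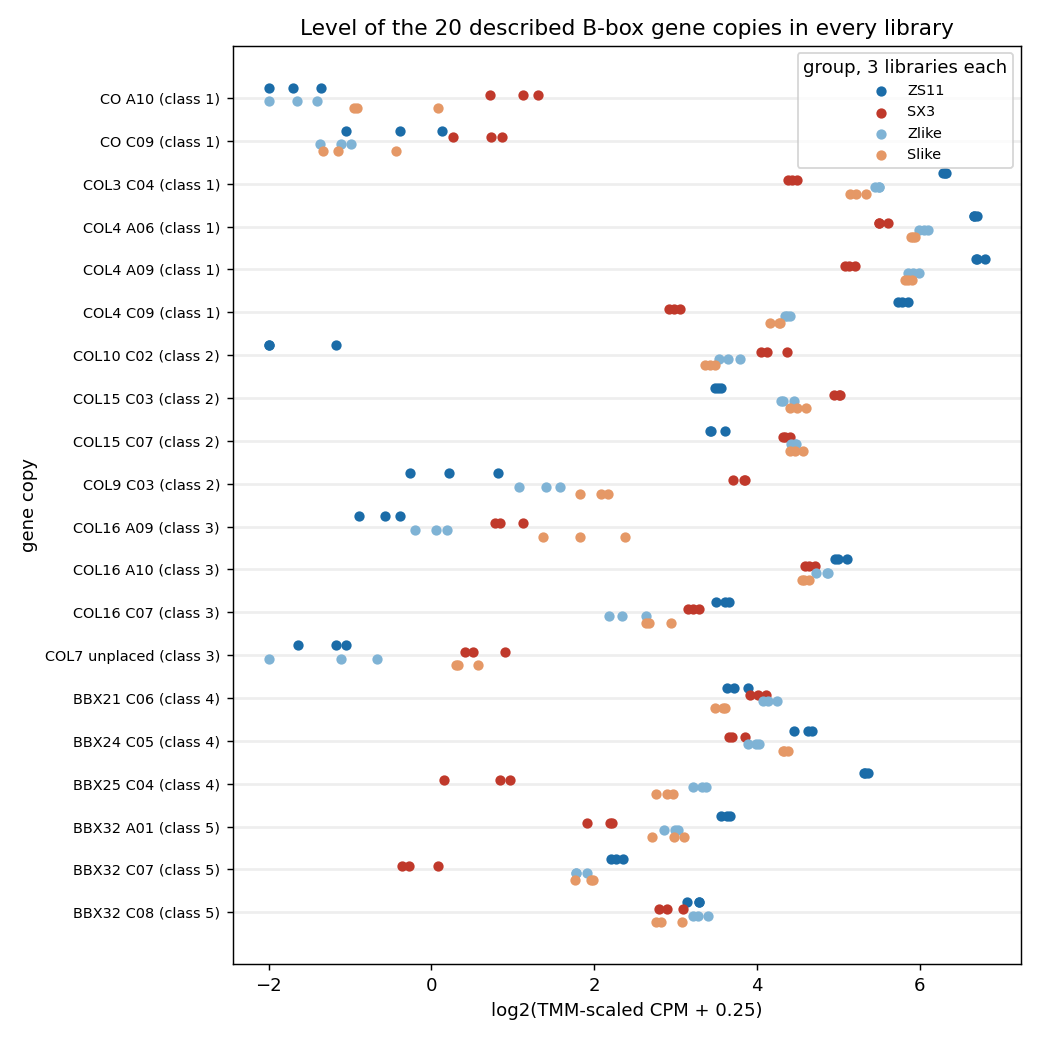
Level (horizontal axis, log2 of TMM-scaled CPM plus 0.25) of the 20 B-box gene copies chosen by rule (vertical axis, with structural class) in each of the 12 libraries, coloured by group. SX3 and ZS11 stand apart in copies such as COL10 on C02 (0.0645 CPM in ZS11, 17.97 in SX3) and BBX25 on C04 (40.2 and 1.37), whereas Zlike and Slike lie close together in most copies.

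The widest change of class 2 was in COL10. All 4 copies were near 0 or low in ZS11 and high in SX3, Zlike and Slike, and their sum was 3.34 ± 0.744 CPM in ZS11, 68.7 ± 1.43 in SX3, 54.4 ± 0.478 in Zlike and 49.2 ± 1.32 in Slike (SD, n = 3). In the C02 copy (BnaC02G0484200ZS, chromosome C02, 58992489 to 58993974) the ZS11 libraries held 0, 0.194 and 0 CPM, the SX3 libraries 16.3, 20.4 and 17.2, the Zlike libraries 11.3, 13.6 and 12.3 and the Slike libraries 10.5, 10.003 and 10.9. In the A02 copy (BnaA02G0360300ZS, chromosome A02, 31881593 to 31883093) the ZS11 libraries held 0.0582, 0.0645 and 0.281 CPM, the SX3 libraries 17.8, 17.3 and 15.6, the Zlike libraries 14.4, 14.3 and 15.002 and the Slike libraries 12.4, 13.8 and 13.6. In both, ZS11 stood alone below the other groups.

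The C07 copy (BnaC07G0327300ZS, chromosome C07, 46665480 to 46667263) had 0.814, 0.581 and 0.773 CPM in ZS11 and 16.4, 14.7 and 15.8 in SX3. The A06 copy (BnaA06G0365400ZS, chromosome A06, 43546693 to 43548134) had 2.15, 3.36 and 1.76 CPM in ZS11 and 18.3, 17.6 and 18.6 in SX3. The C02 copy was chosen by rule and the other copies after their values were seen. All 4 were called higher in SX3 than in ZS11 (highest adjusted p = 3.0e-44; for the C02 copy, with 3 counts in ZS11, a ratio of 280.3, with a 95% counting interval of 95.6 to 1362) and higher in Zlike than in ZS11 (highest adjusted p = 9.9e-35). For the A06 copy, the one with the most counts in ZS11, the log2 fold changes were 2.91 (SE 0.13) and 2.52 (SE 0.14).

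Between the backcross classes COL10 did not pass in any copy: the log2 fold changes in Slike against Zlike were -0.13 (SE 0.10) on A02, -0.11 (SE 0.10) on A06, -0.24 (SE 0.11) on C02 and -0.10 (SE 0.10) on C07. The C02 copy passed without Zlike replicate 1 (adjusted p = 0.046). With the counts of the copies summed, COL10 was called slightly lower in Slike (log2 fold change -0.14, SE 0.051, adjusted p = 0.026). All 4 copies were lower in Slike than in SX3, by log2 fold changes of -0.78 to -0.33 (highest adjusted p = 0.0023). The 20 tested genes around each copy had median log2 fold changes between the parents of -0.91 to 0.46.

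COL9, which delays flowering by holding down CONSTANS and FT, and COL15 rose more modestly. The 5 COL9 copies summed to 30.9 ± 1.44 CPM in ZS11, 64.5 ± 3.33 in SX3, 52.1 ± 2.27 in Zlike and 52.3 ± 2.86 in Slike (SD, n = 3), and 4 of 5 were higher in SX3 than in ZS11 (all genes 33.4%). The widest change was in the C03 copy (BnaC03G0371800ZS, chromosome C03, 25055471 to 25056908): the ZS11 libraries held 1.51, 0.581 and 0.914 CPM, the SX3 libraries 14.3, 12.9 and 14.1, the Zlike libraries 2.42, 2.74 and 1.87 and the Slike libraries 4.24, 3.99 and 3.30. SX3 was above all others and ZS11 below all others; the copy was higher in SX3 than in ZS11 (log2 fold change 3.75, SE 0.17, adjusted p = 6.5e-44) and in Slike than in Zlike (log2 fold change 0.70, SE 0.21, adjusted p = 0.0051).

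COL15 summed over 6 copies to 53.3 ± 2.41 CPM in ZS11, 95.5 ± 3.26 in SX3, 87.1 ± 3.06 in Zlike and 86.6 ± 1.47 in Slike (SD, n = 3), with 3 of 6 higher in SX3 (all genes 33.4%). In the C03 copy (BnaC03G0647300ZS, chromosome C03, 62352712 to 62354510) the ZS11 libraries held 11.2, 11.6 and 10.97 CPM, the SX3 libraries 30.6, 32.2 and 31.9, the Zlike libraries 19.7, 21.7 and 19.4 and the Slike libraries 24.1, 20.9 and 22.3. In the C07 copy (BnaC07G0147800ZS, chromosome C07, 27509407 to 27510968) the ZS11 libraries held 11.98, 10.5 and 10.5 CPM, the SX3 libraries 20.1, 20.996 and 19.7, the Zlike libraries 21.1, 21.98 and 22.1 and the Slike libraries 23.6, 21.1 and 21.96. The C03 copy ordered the groups as ZS11, then the backcross classes, then SX3, whereas in the C07 copy the backcross classes were at or above SX3. Both were higher in SX3 than in ZS11 (C03: log2 fold change 1.496, SE 0.079, adjusted p = 2.0e-38; C07: log2 fold change 0.88, SE 0.090, adjusted p = 9.8e-17) and neither passed in Slike against Zlike (adjusted p = 0.16 and 0.82).

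A single class 2 copy was lower in SX3, COL13 on A03 (BnaA03G0497100ZS, chromosome A03, 27565109 to 27565818), named after its values were seen. Its ZS11 libraries held 6.22, 5.42 and 6.40 CPM, the SX3 libraries 1.40, 1.08 and 1.71, the Zlike libraries 3.32, 2.80 and 4.02 and the Slike libraries 3.66, 3.85 and 4.45. ZS11 was highest and SX3 lowest without overlap (log2 fold change -2.08, SE 0.20, adjusted p = 4.5e-18), while the other COL13 copies, on A05 and C04, were called higher in SX3. COL11 and COL12 were not measurable at this depth: summed over 3 and 11 copies they averaged at most 0.0239 and 0.211 CPM in any group.

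In class 3, most tested copies were called higher in Slike than in Zlike. 4 COL16 copies and 1 COL7 copy were called higher in Slike and 1 COL16 copy lower, of 7 tested (all genes 13.8% and 13.4%). With counts summed over copies, COL16 did not pass in Slike against Zlike (log2 fold change 0.14, SE 0.058, adjusted p = 0.062). The difference between the classes was not tested. COL7 acts on branching in response to shade in Arabidopsis. In COL16 on A09 (BnaA09G0437200ZS, chromosome A09, 49558950 to 49560928) the ZS11 libraries held 0.291, 0.516 and 0.422 CPM, the SX3 libraries 1.54, 1.94 and 1.47, the Zlike libraries 0.622, 0.892 and 0.790 and the Slike libraries 2.34, 4.97 and 3.30. Every Slike library lay above every library of the other groups. It was higher in Slike than in Zlike (log2 fold change 2.19, SE 0.28, adjusted p = 1.0e-10) and in SX3 than in ZS11 (log2 fold change 2.00, SE 0.36, adjusted p = 4.7e-07).

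A copy on C05 (BnaC05G0226300ZS, chromosome C05, 17178698 to 17180607), named after its values were seen, had a similar order: the ZS11 libraries held 0.174, 0.903 and 0.703 CPM, the SX3 libraries 1.03, 1.65 and 1.35, the Zlike libraries 0.898, 0.828 and 0.646 and the Slike libraries 2.85, 2.66 and 2.09. Slike lay above every other library, and ZS11 and Zlike overlapped. It was higher in Slike than in Zlike (log2 fold change 1.66, SE 0.30, adjusted p = 2.2e-06) and in SX3 than in ZS11 (log2 fold change 1.22, adjusted p = 0.0018), the latter lost without ZS11 replicate 1 (adjusted p = 0.083). In COL7 on an unplaced scaffold (Bnascaffold0027G0001000ZS) the ZS11 libraries held 0.233, 0.194 and 0.0703 CPM, the SX3 libraries 1.62, 1.08 and 1.18, the Zlike libraries 0, 0.382 and 0.215 and the Slike libraries 1.24, 0.979 and 1.01. In this copy SX3 and Slike were high and ZS11 and Zlike low, with no overlap between the mutant-type and the wild-type groups. It was higher in SX3 than in ZS11 (log2 fold change 2.86, SE 0.47, adjusted p = 2.4e-08). The value in Slike against Zlike was 2.35 (SE 0.52, adjusted p = 1.3e-04), and 3.25 without Zlike replicate 2. The COL7 copy on A02 (BnaA02G0053000ZS) was instead called lower in SX3 than in ZS11. With counts summed over copies, COL7 did not pass in SX3 against ZS11 (log2 fold change 0.36, SE 0.21, adjusted p = 0.13). The sum was called higher in Slike than in Zlike (log2 fold change 0.54, SE 0.22, adjusted p = 0.049).

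The more abundant COL16 copies changed less between the parents and between the backcross classes. In COL16 on A10 (BnaA10G0215300ZS, chromosome A10, 22593480 to 22595364) the ZS11 libraries held 30.8, 31.6 and 34.3 CPM, the SX3 libraries 25.9, 24.8 and 23.9, the Zlike libraries 29.2, 26.2 and 28.8 and the Slike libraries 23.6, 23.2 and 24.7. It was slightly lower in SX3 than in ZS11 (log2 fold change -0.37, SE 0.066, adjusted p = 3.6e-07), and in Slike than in Zlike (log2 fold change -0.23, adjusted p = 0.0089; 0.057 without Zlike replicate 1 and 0.05 in DESeq2). In COL16 on C07 (BnaC07G0159900ZS, chromosome C07, 28645926 to 28647275) the ZS11 libraries held 12.4, 11.03 and 11.9 CPM, the SX3 libraries 9.04, 9.56 and 8.65, the Zlike libraries 4.28, 4.84 and 5.96 and the Slike libraries 7.46, 6.16 and 5.99. ZS11 was highest, and the Zlike and Slike ranges lay close without overlap: the fall in SX3 passed (log2 fold change -0.37, SE 0.11, adjusted p = 0.0013), and the rise in Slike against Zlike (log2 fold change 0.38, adjusted p = 0.045) was lost without Zlike replicate 1 (adjusted p = 0.22) or 2 (0.12), without Slike replicate 1 (0.25) or 2 (0.053), in DESeq2 (0.17) and with no low-count filter (0.057). In Zlike against ZS11 the C07 copy was at least 2-fold lower (log2 fold change -1.24, SE 0.13, adjusted p = 5.7e-16).

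Floral markers were higher in Slike than in Zlike, as most tested class 3 copies were, although COL16 summed over its copies did not pass. Between the parents the floral markers were higher in SX3 while class 3 was split (4 higher and 3 lower of 7 tested) and its summed level was 51.04 ± 1.18 CPM in ZS11, 46.7 ± 1.15 in SX3, 39.3 ± 1.43 in Zlike and 45.2 ± 0.237 in Slike (SD, n = 3). The 32 floral organ identity genes summed to 91.9 to 100.3 CPM in the Zlike libraries and 410.3 to 419 in Slike. Of these, 24 of 27 tested were called higher in Slike (all genes 13.8%). Their sum was 12.3 to 14.4 CPM in ZS11 and 197 to 200.04 in SX3, with 24 of 26 called higher in SX3 (all genes 33.4%). The summed level of the 5 anther and tapetum genes was 0 in every ZS11 and SX3 library, at most 0.0637 CPM in Zlike and 10.9 to 11.7 CPM in Slike. Copies of ABORTED MICROSPORES (AMS) gave this whole sum, and MALE STERILITY 1 (MS1) was at 0 in every library. The part of the floral and anther genes in the class 3 result was not tested. Copies named COL6 and COL8 stayed too low to test; summed, COL8 averaged 0.752 CPM in Slike and was at 0 in Zlike, and COL6 averaged 0.483 CPM and 0. Another unplaced COL7 copy (Bnascaffold0165G0000200ZS), named after its values were seen, had 9, 0 and 18 counts in Slike and 0, 1 and 1 in Zlike. It was left out by the filter.

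Class 4 regulates seedling greening and light growth together with HY5. The HY5 antagonists BBX24 (SALT TOLERANCE) and BBX25 fell in every tested copy in SX3. BBX25 summed to 52.5 ± 1.76 CPM in ZS11, 2.26 ± 0.462 in SX3, 12.7 ± 0.246 in Zlike and 10.2 ± 0.821 in Slike (SD, n = 3), and BBX24 to 79.4 ± 3.06 CPM in ZS11, 29.4 ± 3.12 in SX3, 42.9 ± 1.86 in Zlike and 45.3 ± 0.818 in Slike (SD, n = 3). In BBX25 on C04 (BnaC04G0512400ZS, chromosome C04, 63744354 to 63745355) the ZS11 libraries held 39.8, 41.04 and 39.6 CPM, the SX3 libraries 1.54, 0.863 and 1.71, the Zlike libraries 9.05, 9.75 and 10.1 and the Slike libraries 7.61, 7.21 and 6.53. None of the groups overlapped another. It fell in SX3 (log2 fold change -4.83, SE 0.12, adjusted p = 1.8e-74), in Zlike against ZS11 (log2 fold change -2.06, adjusted p = 3.4e-47) and in Slike against Zlike (log2 fold change -0.44, SE 0.12, adjusted p = 0.0036).

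On A04 BBX25 (BnaA04G0205800ZS, chromosome A04, 20298119 to 20299070), named after its values were seen, had 125, 124 and 94 counts in the ZS11 libraries, 1, 0 and 0 in those of SX3, 32, 25 and 26 in those of Zlike and 23, 23 and 25 in those of Slike. It was lower in SX3 (a ratio of 325, with a 95% counting interval of 58.03 to 12892, as ZS11 over SX3; adjusted p = 1.0e-38) but did not pass between Slike and Zlike (log2 fold change -0.18, SE 0.27, adjusted p = 0.68). In BBX24 on C05 (BnaC05G0043300ZS, chromosome C05, 2550032 to 2550967) the ZS11 libraries held 25.4, 24.5 and 21.8 CPM, the SX3 libraries 12.3, 14.2 and 12.7, the Zlike libraries 16.1, 15.6 and 14.6 and the Slike libraries 20.6, 19.9 and 19.7. ZS11 was highest and SX3 lowest, and Slike lay above Zlike. The copy fell in SX3 (log2 fold change -0.87, SE 0.084, adjusted p = 3.5e-18) and was higher in Slike than in Zlike (log2 fold change 0.38, SE 0.085, adjusted p = 1.6e-04); of the other 4 tested BBX24 copies, 1 was called lower in Slike.

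BBX21 and BBX22, which promote light growth with HY5, passed in some of their copies between the parents. BBX21 was 2 higher and 0 lower of 6 tested and BBX22 3 higher and 1 lower of 7 tested. Over all genes 69.3% were called there, 33.4% higher and 35.9% lower. With counts summed by name, both were called lower in Slike than in Zlike. The log2 fold changes were -0.52 (SE 0.073, adjusted p = 1.4e-09) for BBX21 and -0.34 (SE 0.079, adjusted p = 2.9e-04) for BBX22. Between the backcross classes BBX21 was 0 higher and 2 lower of 5 tested (all genes 13.8% and 13.4%), with summed levels of 20.6 ± 1.47 CPM in Slike and 29.8 ± 1.26 in Zlike. In its C06 copy (BnaC06G0416300ZS, chromosome C06, 49961906 to 49963171) the ZS11 libraries held 12.2, 14.6 and 12.9 CPM, the SX3 libraries 14.8, 15.9 and 17.001, the Zlike libraries 18.8, 16.7 and 17.4 and the Slike libraries 11.8, 10.9 and 11.99. All Slike libraries were below all Zlike libraries (log2 fold change -0.60, SE 0.094, adjusted p = 6.8e-08). The copy was slightly higher in SX3 than in ZS11 (log2 fold change 0.28, adjusted p = 0.0054), a call lost without ZS11 replicate 1 (adjusted p = 0.067) or SX3 replicate 3 (0.057).

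The remaining class 4 names went in different directions (all genes in SX3 against ZS11 33.4% higher and 35.9% lower). BBX18 and BBX19, the latter a restraint on FT, were lower in SX3 (0 higher and 2 lower of 3 tested and 0 higher and 2 lower of 2 tested). BBX20 went the other way (2 higher and 0 lower of 2 tested), and its sum was 0.378 ± 0.135 CPM in ZS11, 5.62 ± 0.526 in SX3, 2.94 ± 0.313 in Zlike and 4.18 ± 0.293 in Slike (SD, n = 3). The copy on C03 (BnaC03G0672600ZS, chromosome C03, 64940611 to 64941913), named after its values were seen, had the higher level of its copies in SX3, and its ZS11 libraries held 0.116, 0.194 and 0.0703 CPM, the SX3 libraries 3.97, 5.03 and 3.76, the Zlike libraries 1.38, 1.53 and 1.58 and the Slike libraries 1.68, 2.31 and 2.16. ZS11 was lowest and SX3 highest with no overlap (log2 fold change 4.97, SE 0.37, adjusted p = 1.1e-25). BBX23 stayed at most 0.348 CPM in any group when its copies were summed. Green-tissue genes were mostly lower in SX3 than in ZS11, as were the class 4 and class 5 sums, but mostly higher in Slike than in Zlike, where the class 4 sum was lower and the class 5 sums of the libraries overlapped. Class 4 summed to 207 ± 5.96 CPM in ZS11, 99.9 ± 3.04 in SX3, 132 ± 0.886 in Zlike and 117 ± 1.72 in Slike (SD, n = 3). Class 5 summed to 63.4 ± 1.36 CPM in ZS11, 25.8 ± 1.39 in SX3, 41.2 ± 1.74 in Zlike and 38.8 ± 1.35 in Slike (SD, n = 3). Of 94 chlorophyll-binding and Rubisco small-subunit genes, 12 were higher and 60 lower of 77 tested in SX3 against ZS11 (all genes 33.4% and 35.9%). In Slike against Zlike 54 of these genes were higher and 7 lower of 77 (all genes 13.8% and 13.4%). Their sum ranged over 9394 to 9450.5 CPM in ZS11, 3693 to 3740.1 in SX3, 4831 to 4991 in Zlike and 5799 to 5855 in Slike, and 8 of the genes were at 0 in every library. Their part in the results on these classes was not tested.

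Class 5 consisted of 15 copies of BBX32, which dampens light signalling through its binding to BBX21, and fell as a group in SX3. Their sum was 63.4 ± 1.36 CPM in ZS11, 25.8 ± 1.39 in SX3, 41.2 ± 1.74 in Zlike and 38.8 ± 1.35 in Slike (SD, n = 3). In BBX32 on A01 (BnaA01G0166100ZS, chromosome A01, 9860081 to 9860872) the ZS11 libraries held 11.6, 12.5 and 12.2 CPM, the SX3 libraries 4.41, 4.31 and 3.53, the Zlike libraries 7.94, 7.01 and 7.75 and the Slike libraries 8.34, 7.62 and 6.33. ZS11 was highest, SX3 lowest, and Zlike and Slike overlapped between them (log2 fold change -1.57, SE 0.13, adjusted p = 3.6e-22 in SX3 against ZS11). In BBX32 on C07 (BnaC07G0475300ZS, chromosome C07, 56561838 to 56562560) the ZS11 libraries held 4.89, 4.39 and 4.57 CPM, the SX3 libraries 0.808, 0.575 and 0.529, the Zlike libraries 3.18, 3.19 and 3.52 and the Slike libraries 3.15, 3.64 and 3.70. Here SX3 alone was far below the rest (log2 fold change -2.85, SE 0.26, adjusted p = 9.4e-20). Zlike was below ZS11 (log2 fold change -0.49, adjusted p = 0.018), a call lost without ZS11 replicate 1 (adjusted p = 0.069), without Zlike replicate 1 (0.052) or 2 (0.055) and in DESeq2 (0.058).

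A deep fall of this class was in BBX32 on C01 (BnaC01G0249900ZS, chromosome C01, 19472178 to 19472471), named after its values were seen, with 42, 34 and 29 counts in the ZS11 libraries, 0, 0 and 2 in those of SX3, 6, 8 and 7 in those of Zlike and 7, 9 and 11 in those of Slike (a ratio of 49.8, with a 95% counting interval of 13.5 to 417, as ZS11 over SX3; adjusted p = 2.6e-17). BBX32 on C08 (BnaC08G0172500ZS, chromosome C08, 28147750 to 28148572) behaved otherwise: the ZS11 libraries held 8.55, 9.55 and 9.49 CPM, the SX3 libraries 8.30, 7.19 and 6.71, the Zlike libraries 9.46, 9.05 and 10.3 and the Slike libraries 6.51, 8.18 and 6.80. It was the 1 class 5 copy called in Slike against Zlike, where Slike was lower (log2 fold change -0.42, SE 0.12, adjusted p = 0.0059). Its small difference between the parents (log2 fold change -0.31, adjusted p = 0.018) was lost without ZS11 replicate 2 (adjusted p = 0.056), without SX3 replicate 3 (0.12), in DESeq2 (0.064) and with upper-quartile scaling (0.056).

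**Figure D4:**
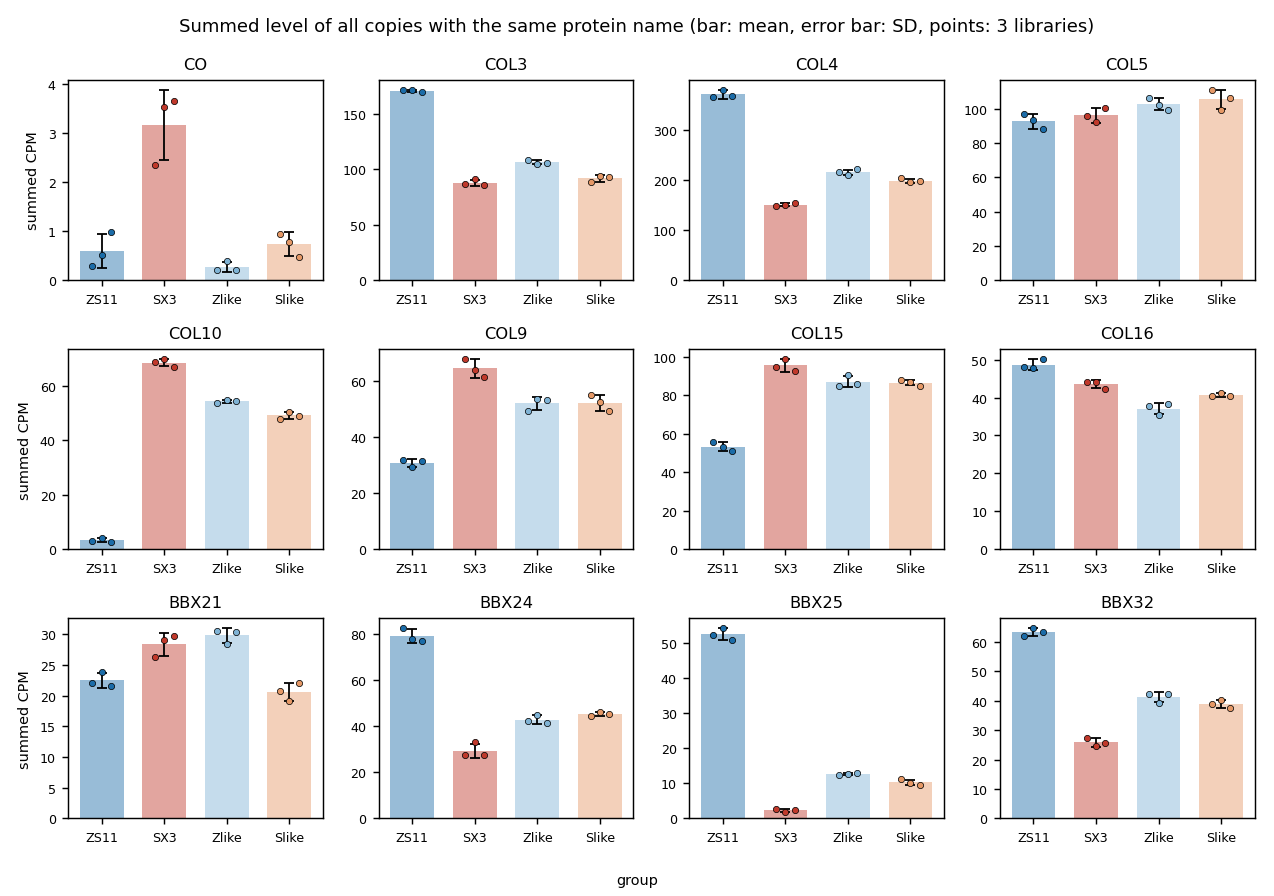
Level summed over all copies of a protein name (vertical axis, TMM-scaled CPM, linear from 0) for 12 names in the 4 groups (horizontal axis); bars are means, error bars SD and points the 3 libraries. COL10 is near 0 in ZS11 (3.34 CPM) and at 49.2 to 68.7 CPM in the other groups, BBX25 is the reverse (52.5 CPM in ZS11 and 2.26 in SX3), and COL5 is nearly level.

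The light and photoperiod genes upstream of the family were mostly lower in SX3. Among all genes tested in SX3 against ZS11, 33.4% were called higher and 35.9% lower. Of the photoreceptor genes (phytochromes and cryptochromes), 3 were called higher and 12 lower of 18 tested; of COP1 and the SPA genes, whose ubiquitin ligase removes CONSTANS in the dark, 2 were called higher and 12 lower of 15 tested. PHYB on C05 (BnaC05G0432200ZS), a copy of the phytochrome B gene, had 48.5, 47.7 and 46.6 CPM in ZS11 and 10.8, 12.2 and 11.9 in SX3. SPA3 on C01 (BnaC01G0432400ZS) had 18.5, 19.5 and 20.4 CPM in ZS11 and 3.45, 3.67 and 4.47 in SX3. Both fell without overlap (PHYB: log2 fold change -2.03, SE 0.071, adjusted p = 1.7e-57; SPA3: log2 fold change -2.30, SE 0.12, adjusted p = 3.4e-40). PHYA on C05 (BnaC05G0073100ZS) was instead higher in SX3 (log2 fold change 0.51, SE 0.045, adjusted p = 1.6e-20) and in Slike than in Zlike (log2 fold change 0.78, SE 0.043, adjusted p = 1.2e-33).

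Of the genes that time CONSTANS transcription (GIGANTEA, the ADAGIO/FKF1 family and the CYCLING DOF FACTORS), 4 were called higher and 12 lower of 19 tested. The CDF repressors of CONSTANS were high in ZS11: CDF2 summed to 30.8 ± 0.982 CPM in ZS11, 4.79 ± 0.498 in SX3, 13.6 ± 1.60 in Zlike and 11.8 ± 0.635 in Slike. GIGANTEA, which helps to remove them, summed to 61.1 ± 1.39 CPM in ZS11, 85.5 ± 3.27 in SX3, 126 ± 1.27 in Zlike and 129 ± 3.59 in Slike, lowest in ZS11. Of the partners of CONSTANS in the NF-Y complex, 8 were called higher and 7 lower of 26 tested. Of HY5 and its homologue HYH, 2 were called higher and 5 lower of 10 tested. Among all genes tested in SX3 against ZS11, 69.3% were called in either direction, 33.4% higher and 35.9% lower. In Slike against Zlike the photoreceptor, COP1 and SPA, timing, NF-Y and HY5 lists gave, in this order, 3 higher and 3 lower of 18, 0 and 5 of 15, 0 and 2 of 15, 3 and 2 of 26, and 0 and 1 of 6. Among all genes, 13.8% were called higher and 13.4% lower there.

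Single partners on these lists differed widely. NF-YB1 (NFYB1) on A05 (BnaA05G0068900ZS), a subunit of the complex through which CONSTANS meets DNA, was lower in SX3 (0.256 ± 0.160 CPM in SX3 against 16.3 ± 0.201 in ZS11, adjusted p = 7.4e-55) and in Slike (8.57 ± 0.643 CPM in Slike against 13.1 ± 1.42 in Zlike, adjusted p = 3.3e-06). The most abundant NF-Y gene, NF-YC9 (NFYC9) on C08 (BnaC08G0528300ZS), was slightly higher in both mutant-type groups (log2 fold change 0.27 in SX3 and 0.22 in Slike, adjusted p = 7.4e-08 and 2.6e-04). HYH on C01 (BnaC01G0412000ZS) was lower in SX3 (0.0245 ± 0.0424 CPM in SX3 against 6.78 ± 0.668 in ZS11, adjusted p = 3.8e-37), whereas HY5 on C09 (BnaC09G0544300ZS) did not pass (log2 fold change 0.078, SE 0.11, adjusted p = 0.52). ADAGIO 2 (ADO2) on A07 (BnaA07G0015400ZS), a blue-light receptor that targets the CDF proteins for removal, was higher in SX3 (8.40 ± 0.504 CPM in SX3 against 0.0645 ± 0.112 in ZS11, adjusted p = 8.4e-41). CDF3 on C03 (BnaC03G0619100ZS) was lower in SX3 (log2 fold change -3.17, SE 0.17, adjusted p = 3.6e-37) and in Slike (log2 fold change -0.58, SE 0.14, adjusted p = 4.0e-04).

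Of the genes downstream, FT, its sister TSF and SOC1, 3 were called higher and 5 lower of 11 tested (all genes 33.4% and 35.9%). FT on C06 (BnaC06G0323800ZS) had 0.698, 0.968 and 0.422 CPM in the ZS11 libraries, 9.33, 9.71 and 8.65 in those of SX3, 0.691, 1.08 and 0.790 in those of Zlike and 2.71, 1.89 and 2.96 in those of Slike. It was highest in SX3 and intermediate in Slike, without overlap (log2 fold change 3.70, SE 0.21, adjusted p = 6.3e-36 in SX3 against ZS11; log2 fold change 1.54, SE 0.29, adjusted p = 9.1e-06 in Slike against Zlike). SOC1, a flowering promoter at the apex, summed to 155 ± 4.39 CPM in ZS11, 141 ± 4.44 in SX3, 53.3 ± 0.916 in Zlike and 52.9 ± 1.70 in Slike, with both backcross classes low. Of the florigen list, 1 gene was higher and 1 lower of 10 tested in Slike against Zlike (all genes 13.8% and 13.4%). In Arabidopsis CONSTANS and FT act in the phloem. Phloem and other vascular genes (APL, SUC2 and ATHB-8) summed over 40 copies to 245 to 256 CPM in the ZS11 libraries, 189 to 192 in SX3, 199.71 to 205 in Zlike and 176 to 179 in Slike. APL made up most of this sum and was 224 ± 5.65 CPM in ZS11, 149 ± 0.745 in SX3, 182 ± 1.95 in Zlike and 150.3 ± 1.40 in Slike (SD, n = 3). The summed levels of the other markers went the other way: SUC2 was 2.04 ± 0.626, 5.04 ± 1.19, 2.92 ± 0.130 and 4.53 ± 0.135 CPM, and ATHB-8 23.2 ± 0.152, 36.4 ± 1.72, 16.8 ± 0.767 and 22.6 ± 0.853 CPM, in the same order of groups. Both were higher in SX3 than in ZS11 and in Slike than in Zlike, as FT was. Of the 40 copies, 10 were called higher and 9 lower of 30 tested in SX3 against ZS11 (all genes 33.4% and 35.9%). In Slike against Zlike 4 were called higher and 8 lower of 27 tested (all genes 13.8% and 13.4%). None of the copies was at 0 in every library, and their part in the results on CONSTANS and FT was not tested.

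Clock genes differed widely between the groups, with ZS11 or SX3 at the extremes. The morning gene LHY summed to 503 ± 4.52 CPM in ZS11, 5.08 ± 0.456 in SX3, 114 ± 2.92 in Zlike and 94.1 ± 2.89 in Slike. The evening gene APRR1 (TOC1) summed to 5.00 ± 0.291 CPM in ZS11, 153 ± 5.57 in SX3, 121 ± 6.02 in Zlike and 122 ± 3.98 in Slike, and APRR5 to 4.84 ± 1.03 CPM in ZS11, 44.4 ± 2.33 in SX3, 49.7 ± 0.637 in Zlike and 53.6 ± 1.96 in Slike. APRR7 on C02 (BnaC02G0007000ZS) was at 0 in all SX3 libraries and at least 113-fold lower there than in ZS11, against a floor of 3 counts per library. The same copy held 23.04 ± 0.352 CPM in ZS11, 32.2 ± 0.936 in Zlike and 18.2 ± 1.91 in Slike, so that SX3 stood apart. LHY was highest in ZS11 and lowest in SX3, and APRR1 and APRR5 were low in ZS11 and high in the other groups, as COL10 was. Of the 59 clock genes, 20 were called higher and 19 lower of 42 tested in SX3 against ZS11 (all genes 33.4% and 35.9%). In Slike against Zlike 3 were called higher and 8 lower of 39 tested (all genes 13.8% and 13.4%). The hour of sampling is not given in the labels, and it cannot be told apart from the group; the part of the clock in the results on B-box genes was not tested.

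**Figure D5:**
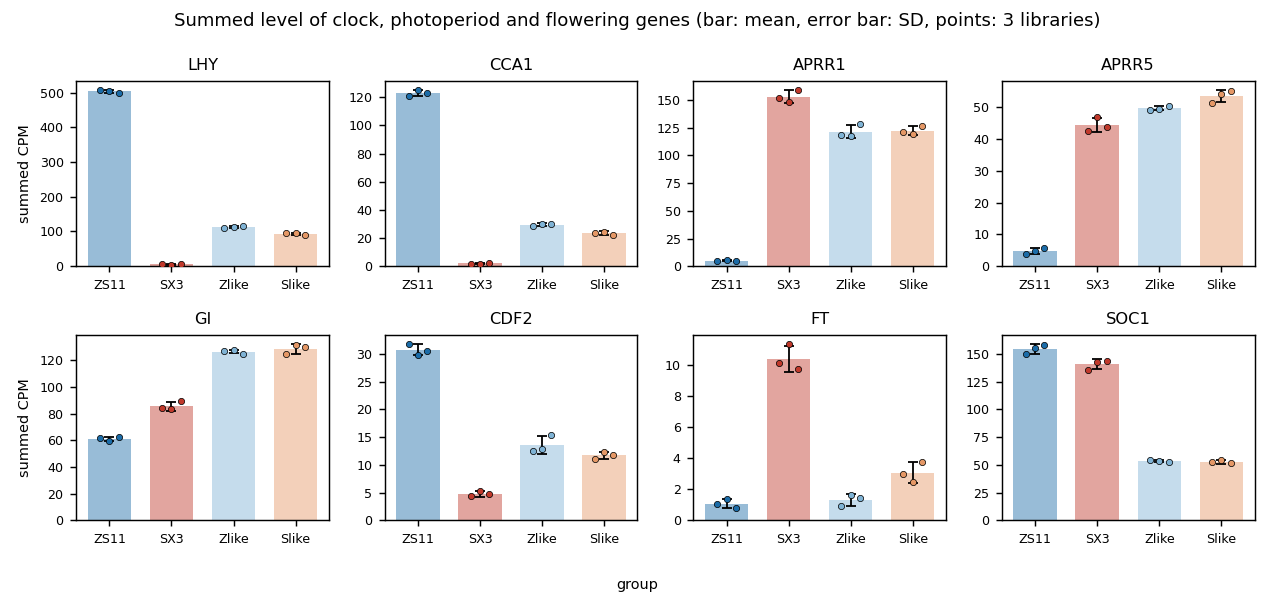
Level summed over all copies (vertical axis, TMM-scaled CPM, linear from 0) of the clock genes LHY, CCA1, APRR1 and APRR5, the photoperiod genes GI and CDF2, and FT and SOC1 in the 4 groups (horizontal axis); bars are means, error bars SD and points the 3 libraries. LHY falls from 503 CPM in ZS11 to 5.08 in SX3, and APRR1 rises from 5.00 to 153.

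Over the whole family the A and C chromosomes gave similar shares of the counts, whereas several names did not. A-chromosome copies gave 52.8 ± 0.185% of the members' counts in ZS11, 53.1 ± 0.391% in SX3, 54.4 ± 0.385% in Zlike and 54.8 ± 0.460% in Slike. Within names the A share of the summed counts differed more: for COL10 it was 75.7 ± 5.06% in ZS11 and 51.04 ± 1.34% in SX3, and for COL13 84.2 ± 2.98% and 48.6 ± 2.46%. For COL16 it was 74.5 ± 0.608% in ZS11 and 75.9 ± 1.32% in SX3, and for BBX25 17.4 ± 1.29% and 17.3 ± 3.31%. CONSTANS gave 11.4 ± 10.3% in ZS11, from few counts, and 58.6 ± 3.17% in SX3. These shares were not tested. In SX3 against ZS11, A copies were 16 higher and 22 lower of 49 tested and C copies 19 higher and 22 lower of 50 tested. Both lay near each other and not far from the shares over all genes (33.4% higher and 35.9% lower). Reads of near-identical copies can be split between them, so the level of one copy is less certain than the sum over a name. No source used here gives the genome build or the strand setting of the counting; reads of SX3 that mismatch the reference could be lost, and reads of overlapping genes cannot be told apart. With counts summed by name before the test, 6 names were higher and 10 lower of 20 tested in SX3 against ZS11 (all genes in that fit 16634 and 17969 of 49955). In that comparison 9 called copies of COL3, COL4 and COL16 went against the call of their name: the sums were lower in SX3 (log2 fold change -0.96, -1.29 and -0.16) and these copies higher.

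Few members lay among neighbours whose median log2 fold change reached 1 in size. For the 99 members on chromosomes with tested neighbours, the median log2 fold change of the 10 tested genes on each side lay between -1.27 and 0.77 in SX3 against ZS11, and reached 1 in size for 3 (COL2 on C01, COL9 on A01 and BBX20 on A08; chosen after their values were seen). In Slike against Zlike none of 91 reached it. The authors' deposited table of SX3 against ZS11 marked 35 members as up and 24 as down. By the deposited counts, the members of the authors' deposited table marked up were all lower in SX3 and those marked down were higher, so the words there describe ZS11 relative to SX3. All of them were called here. The authors' deposited table for the backcross classes listed 4 members, all higher in Slike, of which 3 were called here.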

How the data were processed

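The authors deposited raw read counts per gene with FPKM (fragments scaled by the listed gene length and by library depth) for 12 libraries of total RNA, and tables that mark genes as up or down. Per the submitters' processing notes, fastp, HISAT2 and featureCounts were used; no source used here gives their versions, the build, the annotation or the strand setting. The deposited counts (13445924 to 17778731 per library) were tested with edgeR 4.0.16 in R 4.3.3: TMM scaling, filterByExpr by group, a quasi-likelihood fit and Benjamini-Hochberg adjustment over all genes tested, called at an adjusted p under 0.05. Each pair of groups was fitted on its 6 libraries; the difference of comparisons, Zlike against ZS11 and Slike against SX3 used all 12. DESeq2 1.42.0 was an alternative. The common coefficient of variation was 2.70% to 3.05%. Each pair of libraries within a group gave a chi-square per gene of 1.35 to 1.47, above sampling noise, so none was merged.

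Copies with values in every library were CONSTANS and, per class, the 2 with the highest mean FPKM and those with the smallest p in SX3 against ZS11, in Slike against Zlike and in the difference of comparisons; for other lists, the highest CPM and the smallest p in each pair. The members and lists were chosen with earlier results of these data known. Intervals are exact binomial, conditional on both counts, at 95%. In data simulated for SX3 against ZS11, the test called 87.9% of 99 genes changed by a log2 step of 1 and 58.6% of 99 changed by 0.5; in the difference of comparisons it called 79% and 39% of 100 each. False calls were 1.7% to 5.6% of all calls, and 8.7% in Slike against SX3. The simulation gave every gene the same spread and changed few genes, none of them with low counts. These rates therefore need not hold for the real comparisons, where many genes were called, or for copies with few counts such as CONSTANS. No name pattern found DYSFUNCTIONAL TAPETUM 1 or ROOT HAIR DEFECTIVE 6, so no root gene was examined. No sequence is shown.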

Additional observations from a re-analysis of the deposited data

Results flagged for a closer look

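The copies below were picked out because the step from wild-type to mutant-type plants differed between the backcross pair and the parental pair, tested as (Slike - Zlike) - (SX3 - ZS11) on the log2 scale in edgeR's fit of all 12 libraries. A positive value means a higher step in the backcross pair. Each passed an adjusted p under 0.05 there, as did 53.3% of all 51650 genes tested (30.1% more positive and 23.2% more negative). Some of the copies had been chosen for a small p in SX3 against ZS11 or in this contrast, and others after their values were seen. Passing here is therefore no separate support for them.

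Among the copies that were lower in SX3 than in ZS11, class 1 gave 3.09 for COL1 on A10, 2.57 for COL1 on C09, 1.64 for COL3 on C04, 1.0 for COL4 on A06, 1.53 for COL4 on A09 and 2.7 for COL4 on C09. In other classes the values were 2.33 for COL13 on A03, 0.76 for COL16 on C07, 1.25 for BBX24 on C05, 4.4 for BBX25 on C04, 1.54 for BBX32 on A01 and 2.95 for BBX32 on C07. COL16 on C07 and BBX24 on C05 were lower in SX3 than in ZS11 and higher in Slike than in Zlike, so that the directions were opposite; the COL16 call in Slike against Zlike was lost under several settings, as given with its values.

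Among the copies that were higher in SX3, the values were -7.09 for COL10 on A02, -3.02 for COL10 on A06, -4.52 for COL10 on C07, -1.35 for COL15 on C03, -0.85 for COL15 on C07, -3.04 for COL9 on C03, -4.51 for BBX20 on C03 and -0.88 for BBX21 on C06. For COL3 on C05 and COL4 on A03, higher in SX3 than in ZS11 and lower in Slike than in Zlike, the values were -1.93 for COL3 on C05 and -3.06 for COL4 on A03. The Slike against Zlike calls of both copies were lost when 1 library was left out, as given with their values. BBX21 on C06 was also higher in SX3 (log2 0.28) and lower in Slike (log2 -0.60); its SX3 call was lost without ZS11 replicate 1 (adjusted p = 0.067) or SX3 replicate 3 (0.057).

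For copies with 0 to 3 counts in a whole parental group the size of the fitted value depends on the prior count and is no estimate: 7.91 for COL2 on C01, -8.2 for COL10 on C02, 7.7 for BBX25 on A04 and 5.79 for BBX32 on C01. Leaving out 1 library moved the value to 4.28 for COL1 on A10 (without SX3 replicate 1) and to -8.06 for COL10 on A02 (without ZS11 replicate 3). CONSTANS was not among the copies picked out: its difference did not pass on A10 (log2 -2.14, SE 1.39, adjusted p = 0.19) or C09 (log2 -0.91, SE 0.84, adjusted p = 0.38).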

How the results depend on the processing

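Limiting the members to those listed with a B-box or CCT domain, added after seeing the data, kept the same fitted values. No direction could change there. Over the 103 members tested, no called direction of a copy reversed under the other settings tried. These were other scalings, no low-count filter, DESeq2, a replicate block, all 12 libraries in one fit, and each library left out. Of the comparisons of named genes under these settings and, for genes outside the family, in the fit with members summed by name, 4404 kept their side of the threshold, 55 fell below it and 6 rose above it; 31 values that passed in neither fit changed sign, among them CONSTANS on A10 in Zlike against ZS11 (0.074; -0.45 without ZS11 replicate 2 and -0.73 without Zlike replicate 2). Counts of members called moved by over 1.5 times in these cases. With copies summed by name, 6 names were higher and 10 lower in SX3 against ZS11, 3 and 6 in Slike against Zlike, 11 and 6 in the difference of comparisons, 7 and 11 in Zlike against ZS11, and 8 and 6 in Slike against SX3; this setting counts at most 20 names in place of copies, and 9 copies called higher in SX3 belong to names called lower. DESeq2 called 6 members lower in Slike against Zlike in place of 17, and 4244 of all genes in place of 6625. The cause was not tested. With each library left out in turn, the members called higher and lower ranged over 34 to 37 and 42 to 44 in SX3 against ZS11, 7 to 10 and 11 to 14 in Slike against Zlike, 37 to 39 and 30 to 33 in the difference, 25 to 29 and 38 to 42 in Zlike against ZS11, and 32 to 35 and 24 to 28 in Slike against SX3.

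Deviations of same-numbered libraries correlated between -0.0043 and 0.0066 in SX3 against ZS11 and in Slike against Zlike. No pairing by number was seen in these comparisons. Counting noise makes up much of such deviations, so a small shared effect could have been missed. With a replicate block, 37 members were higher and 43 lower in SX3 against ZS11, 10 and 15 in Slike against Zlike, 37 and 32 in the difference, 28 and 42 in Zlike against ZS11, and 34 and 28 in Slike against SX3; no call of a named gene changed. Depth limits the 40 members with fewer than 10 counts in all, and CONSTANS in ZS11, Zlike and Slike.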
